A study of Mus musculus with 6 samples.

Results

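The pyruvate dehydrogenase complex and the citric acid cycle were followed in liver through a list of 35 genes. DUhTP (marathon) mice were compared with unselected DUC control mice. The genes were chosen by name, with earlier results of these data known. The list covers the subunits of the complex with its kinases and phosphatases, the entry of pyruvate into mitochondria and its carboxylation, the enzymes of the steps of the cycle, and 3 carriers of cycle acids. A member was any probe set, the group of short probes that reads the transcripts of a gene, whose only symbol in the array annotation is a listed gene. This gave 54 probe sets for 32 genes, of 20380 probe sets and 12393 genes with a single symbol on the whole array. Among the 32 genes, 17 were read by more than 1 probe set. Pdhx, Pdp1 and Pdp2 had no such probe set and were not analysed here.

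Pyruvate from glycolysis enters mitochondria, where pyruvate dehydrogenase converts it to acetyl-CoA and pyruvate carboxylase converts it to oxaloacetate. The dehydrogenase is switched off when its kinases phosphorylate it and switched on again by phosphatases. The citric acid cycle oxidises the acetyl group and passes electrons to the respiratory chain, and in liver its acids also leave the cycle for gluconeogenesis and for the synthesis of amino acids and lipids.

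Both lines descend from a non-inbred population that was made by crossing outbred stocks (CF1, CFW, Han:NMRI and NMRI orig.) with inbred lines (AB/Bln, C57BL/Bln, CBA/Bln and XVII/Bln). DUhTP mice come from long selection on treadmill running and DUC mice from unselected breeding, and the labels name no altered gene and no drug for either. Liver RNA of mice 70 days old was read on Affymetrix oligonucleotide arrays of the mouse genome, 3 for each line. The methods speak of male mice and of pools where the labels speak of a single mouse, which is not settled here, so every SD and p measures the spread among arrays, which may be technical.

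Values are PLIER intensities, a linear signal in arbitrary units, and levels of different probe sets cannot be set against each other. The median intensity lay between 53.08 and 56.59 on the DUhTP arrays and between 56.33 and 57 on the DUC arrays. Log2 intensities of arrays correlated at 0.959 to 0.976 within a line and at 0.95 to 0.963 between lines. The 6 measured hepatocyte markers summed to 76648 to 78882 on the DUhTP arrays and to 79526 to 82113 on the DUC arrays. The lines did not overlap in this sum, and 0 of the 6 passed the test. Cps1 (mean 8284 in DUhTP, 10392 in DUC) and Fgb (10967 and 12545) lay below DUC on every array. Ttr lay above DUC on its brightest probe set (12854 and 12285), and Alb, Apoa1 and Apoa2 overlapped. Because whole liver was measured, fewer cells of a type and less RNA per cell cannot be told apart.

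Of the 32 genes, Idh3a, the catalytic α subunit of the NAD-dependent isocitrate dehydrogenase, passed the test in the deposited values and was lower in DUhTP mice, with a fold change (FC) of -2.03. An FC with a minus sign stands for the lower level in DUhTP, and the log2 fold change used below is the mean log2 intensity of DUhTP minus that of DUC arrays. The test was limma's moderated comparison of the lines over all 22626 probe sets, with Benjamini-Hochberg adjusted p under 0.05. This 1 gene is 3.1% of the 32, and of all 12393 genes 1.40% were called lower and 1.92% higher, 3.32% in all. With an FC over 2 asked for as well, Idh3a was again the 1 gene called, against 1.93% of all genes.

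With 16 added to every intensity before the log, which damps differences among dim probe sets, 5 genes were lower and 0 higher. These were Idh3a, Fh1, Pdha1, Pdk4 and Ogdh. They are 15.6% of the 32, and with 16 added 6.0% of all genes were called lower and 5.31% higher, 11.3% in all. The difference between 15.6% and 6.0% was not tested, because the genes were listed with earlier results of these data known.

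Most members differed little between the lines. The median log2 fold change of the 54 probe sets was -0.09, against -0.02 for all tested probe sets. With each gene taken at its brightest probe set, 10 of the 32 genes lay below DUC without overlap (16% of all genes) and 4 above (15.6% of all genes). Of these brightest probe sets, 22 of the 32 had a log2 fold change within 0.25 of 0, and 21 of 32 were below 0, against 49.8% of all genes. The arrays of the lines did not overlap for 15 of the 54 probe sets with DUhTP below DUC, and for 7 with DUhTP above DUC. Over all probe sets these shares were 15.8% and 13.6%, so the count below DUC was above its background share and the count above DUC was near it. The excess was not tested, and these background shares include the dim probe sets. At an unadjusted p under 0.05, 10 member probe sets were lower and 3 higher, and 21.1% of all probe sets passed in either direction. All but 1 of the 54 probe sets, 53 in number, were in the brighter part of the array, above the median mean intensity.

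**Figure D1:**
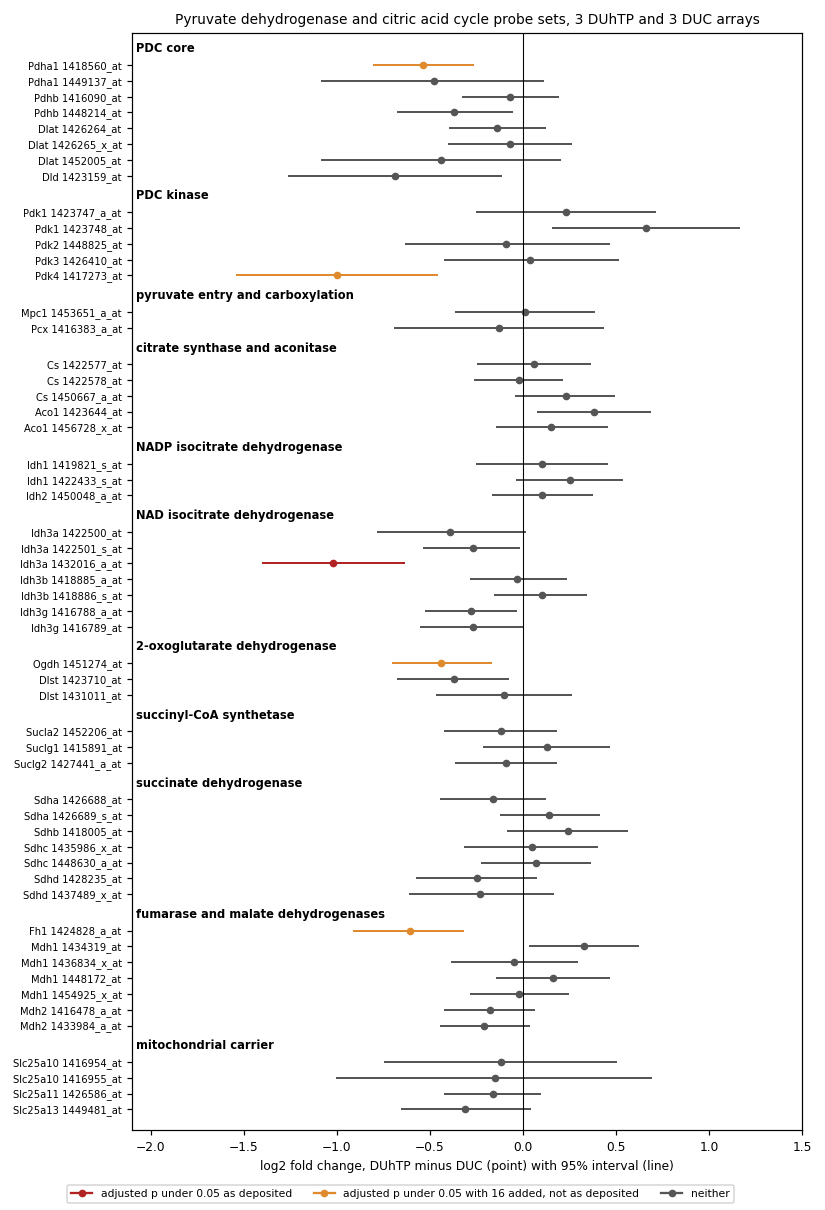
Log2 fold change (DUhTP minus DUC, horizontal axis) of each of the 54 member probe sets, grouped by complex and step, with 95% intervals from limma over 3 arrays per line. Red marks the probe set with an adjusted p under 0.05 as deposited (Idh3a 1432016_a_at, -1.02), orange the 4 that passed with 16 added (Pdha1, Pdk4, Ogdh and Fh1), and grey the others, whose intervals mostly cross 0.

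The region before the transcription start is shown for the pyruvate dehydrogenase gene Pdha1, its kinase gene Pdk4 and the fumarase gene Fh1, which were lower together with 16 added and have a single listed start. The sequences are 250 bases long, run 5′ to 3′ on the gene's strand and end at the base before the start, and were taken from RefSeq, build GRCm38.p6. Capitals mark matches, on either strand, to AGGTCA (the core element of nuclear receptors), to AAGGTCA (its longer form, which holds the shorter one), to the forkhead element GTAAACA, to the GC box GGGCGG and to the CCAAT box.
Pdha1, chrX:160138431-160138680, minus strand: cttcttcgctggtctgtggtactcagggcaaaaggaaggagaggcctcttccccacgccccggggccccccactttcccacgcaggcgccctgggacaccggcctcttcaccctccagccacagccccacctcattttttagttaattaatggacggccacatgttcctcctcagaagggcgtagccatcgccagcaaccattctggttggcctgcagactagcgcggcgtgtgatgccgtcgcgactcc
Pdk4, chr6:5496279-5496528, minus strand: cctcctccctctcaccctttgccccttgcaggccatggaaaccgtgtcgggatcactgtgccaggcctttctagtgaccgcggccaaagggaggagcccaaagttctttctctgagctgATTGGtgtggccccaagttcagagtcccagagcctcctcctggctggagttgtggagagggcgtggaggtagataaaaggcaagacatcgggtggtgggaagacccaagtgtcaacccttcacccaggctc
Fh1, chr1:175625636-175625885, minus strand: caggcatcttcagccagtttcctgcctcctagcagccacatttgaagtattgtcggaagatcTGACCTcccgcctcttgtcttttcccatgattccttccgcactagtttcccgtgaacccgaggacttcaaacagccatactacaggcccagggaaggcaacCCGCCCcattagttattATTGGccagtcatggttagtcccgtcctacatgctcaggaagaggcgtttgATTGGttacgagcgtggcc
The Pdha1 window held none of these letters and had a GC content of 61.6%. The Pdk4 window held CCAAT at position -131, counted from the start, with a GC content of 58.8%. The Fh1 window held AGGTCA at -188, GGGCGG at -87 and CCAAT at -70 and -19, with a GC content of 52.8%.
Among the 30 member genes with a window, AGGTCA was found in 4 (Fh1, Mpc1, Sdhb and Sucla2), AAGGTCA and GTAAACA in 0, and GGGCGG and CCAAT in 19 each. Some genes have more than 1 window, and of the 40 windows of these genes 4 held AGGTCA and 22 each GGGCGG and CCAAT. Of all 32851 windows of this length, 14% held AGGTCA, 4.08% AAGGTCA, 3.17% GTAAACA, 32.7% GGGCGG and 33.8% CCAAT. A match is a description of the letters and does not show that a factor binds.

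The pyruvate dehydrogenase core was read by 8 probe sets of 4 genes. Their log2 fold changes were all below 0, between -0.69 and -0.07, and 0 of the 4 genes passed the test in the deposited values. Pdha1, the E1 α subunit that carries the regulatory phosphorylation sites, measured 719, 625 and 680.2 on probe set 1418560_at on the DUhTP arrays, against 1018, 966 and 949 on the DUC arrays. The highest DUhTP array was below the lowest DUC array. The log2 fold change was -0.54 (SE 0.11, FC -1.45), with an adjusted p of 0.0687 as deposited and 0.0174 with 16 added. Its dimmer probe set 1449137_at measured 292, 262 and 189 in DUhTP and 389, 389.9 and 260.0 in DUC, and these ranges overlapped (log2 fold change -0.48, 95% interval -1.08 to 0.11).

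Pdhb, the E1 β subunit that pairs with Pdha1, measured 1427, 1488 and 1513 in DUhTP and 1525, 1638 and 1478 in DUC on its bright probe set 1416090_at. The ranges overlapped and the log2 fold change was -0.07 (95% interval -0.32 to 0.19). On the dimmer 1448214_at DUhTP lay below DUC on every array, at 123, 109.7 and 127 against 169, 153 and 142, with a log2 fold change of -0.37 and an adjusted p of 0.175. The log2 intensity of Pdha1 (1418560_at) relative to that of Pdhb (1416090_at) was -0.99, -1.25 and -1.15 in DUhTP and -0.58, -0.76 and -0.64 in DUC, a difference of -0.47 without overlap. This pair was chosen after its values were seen, and its difference is given as a description.

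Dlat, the E2 subunit that transfers the acetyl group, had 3 probe sets with log2 fold changes of -0.14, -0.07 and -0.44. The brightest, 1426265_x_at, measured 259.6, 289 and 266 in DUhTP and 294, 316 and 246 in DUC, with overlap. Dld, the E3 subunit shared with the 2-oxoglutarate and branched-chain complexes, measured 388, 217 and 316 in DUhTP and 491, 519 and 439.7 in DUC. The lines did not overlap, but the DUhTP arrays spread widely (307 ± 86.0, SD, n = 3, against 483 ± 40.1 in DUC, SD, n = 3). The log2 fold change of -0.69 (SE 0.23) had an adjusted p of 0.172 as deposited and 0.0552 with 16 added. It was -0.46 at the smallest and -0.88 at the largest when single arrays were left out.

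The kinases of the complex did not share a direction. Pdk4, the kinase best known for its rise in fasting, measured 40.9, 36.7 and 56.7 in DUhTP, against 94.2, 71.9 and 101 in DUC. All DUhTP arrays were below all DUC arrays, with means of 44.8 ± 10.5 in DUhTP and 88.9 ± 15.0 in DUC (SD, n = 3 each). The log2 fold change was -1.0 (SE 0.22, FC -2.0), with an adjusted p of 0.0794 as deposited. With 16 added it was -0.79, with an adjusted p of 0.0139, and that call was kept in 4 of the 6 fits that each left out 1 array. Its signal was dim, close to the median of the array.

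Pdk1, a kinase induced by hypoxia in other tissues, lay in the other direction. Its probe set 1423748_at measured 95.4, 82.9 and 135 in DUhTP and 59.4, 64.9 and 69.9 in DUC, with no overlap. The log2 fold change of 0.66 had an adjusted p of 0.152 as deposited and 0.0578 with 16 added, and so did not pass. On the brighter 1423747_a_at the lines overlapped, at 282, 181 and 261 in DUhTP and 217, 201 and 189 in DUC, with a log2 fold change of 0.23. Pdk2, the kinase most widely expressed in tissues, measured 369, 281 and 227 in DUhTP and 254, 329 and 339 in DUC (log2 fold change -0.09). Pdk3 gave a dim signal, at 13.1, 10.9 and 8.49 in DUhTP and 9.38, 11.5 and 10.3 in DUC. Both overlapped between the lines, and their 95% intervals ran from -0.63 to 0.46 for Pdk2 and from -0.42 to 0.51 for Pdk3.

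Pyruvate entry was read by Mpc1, a subunit of the mitochondrial pyruvate carrier, and the carboxylation of pyruvate by Pcx, pyruvate carboxylase. Mpc1 measured 3058, 2228 and 2684 in DUhTP and 2725, 2676 and 2449 in DUC, with a log2 fold change of 0.01 (95% interval -0.36 to 0.38). Pcx measured 1763, 1831 and 1096 in DUhTP and 1500.0, 1774 and 1744 in DUC. DUhTP replicate 3 alone lay below the DUC range for Pcx, and the log2 fold change was -0.13 with that array and 0.11 without it.

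Citrate synthase, Cs, which joins acetyl-CoA to oxaloacetate, had 3 probe sets with log2 fold changes of 0.06, -0.02 and 0.23. The brightest, 1450667_a_at, measured 531, 592 and 609 in DUhTP and 501, 488 and 489 in DUC. These arrays did not overlap, but the difference did not pass the test (adjusted p 0.296). Aco1, the cytosolic aconitase that also acts as an iron-responsive RNA-binding protein, measured 855, 742 and 885 in DUhTP and 636, 670.1 and 596 in DUC on 1423644_at. DUhTP was higher on every array, with a log2 fold change of 0.38 (SE 0.12) and an adjusted p of 0.159, or 0.0778 with 16 added. On the brighter 1456728_x_at, at 3459, 2802 and 3185 in DUhTP and 2744, 2790.3 and 2926 in DUC, the lines overlapped (log2 fold change 0.15).

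The NADP-dependent isocitrate dehydrogenases, which yield NADPH, had log2 fold changes between 0.10 and 0.25 on all 3 probe sets, and 0 passed the test. The cytosolic Idh1 measured 2715, 2426 and 2919 in DUhTP and 2223, 2282 and 2267 in DUC on 1422433_s_at, without overlap (log2 fold change 0.25, adjusted p 0.287). The mitochondrial Idh2 measured 700.5, 677 and 640.1 in DUhTP and 635, 661 and 587 in DUC, with overlap (log2 fold change 0.10).

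The NAD-dependent isocitrate dehydrogenase, a mitochondrial enzyme of α, β and γ subunits and a control point of the cycle, held the 1 called gene. Idh3a on 1432016_a_at measured 395, 294 and 383 in DUhTP, against 750.2, 752 and 658 in DUC. The highest DUhTP array was well below the lowest DUC array, and the means were 357 ± 55.5 in DUhTP and 720.0 ± 53.7 in DUC (SD, n = 3 each). The log2 fold change was -1.02 (SE 0.16, 95% interval -1.40 to -0.64), with an adjusted p of 0.0381 as deposited and 0.00228 with 16 added. As deposited, the call was lost whichever array was left out, with log2 fold changes of -1.10 to -0.89 and adjusted p of 0.0662 to 0.143. With 16 added it was kept in 6 of 6 such fits (adjusted p 0.00349 to 0.0174).

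The other probe sets of Idh3a differed less. On 1422501_s_at DUhTP measured 156, 156 and 162 and DUC 190.3, 204 and 179.9, again without overlap, with a log2 fold change of -0.27 and an adjusted p of 0.215. On 1422500_at, the dimmest, DUhTP measured 64.9, 59.5 and 78.8 and DUC 86.6, 101 and 78.5, with slight overlap (log2 fold change -0.39, adjusted p 0.244). The log2 intensity of 1432016_a_at relative to 1422501_s_at was 1.34, 0.91 and 1.24 in DUhTP and 1.98, 1.88 and 1.87 in DUC, so the probe sets of this gene differed between the lines by unequal amounts. A name ending in _a_at marks a probe set for alternative transcripts of a gene, and one ending in _s_at or _x_at a probe set with matches to more than 1 transcript. Which transcripts of Idh3a each one reads was not analysed here.

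The partner subunits had smaller log2 fold changes than Idh3a on 1432016_a_at, and those of Idh3g were about as large as that of Idh3a on 1422501_s_at. Idh3g, the regulatory γ subunit, measured 945, 977 and 967 in DUhTP and 1132, 1189 and 1182 in DUC on 1416788_a_at. The lines did not overlap and the log2 fold change was -0.28 (adjusted p 0.184), close to the -0.27 of its other probe set. Idh3b, the β subunit, measured 2293, 2247 and 2385 in DUhTP and 2144, 2236 and 2087 in DUC on 1418886_s_at, with a log2 fold change of 0.10 (95% interval -0.15 to 0.34). Its other probe set, 1418885_a_at, overlapped between the lines (log2 fold change -0.03). Relative to Idh3b on 1418886_s_at, the log2 intensity of Idh3a (1432016_a_at) was -2.54, -2.94 and -2.64 in DUhTP and -1.52, -1.57 and -1.67 in DUC. The difference of -1.12 is a description of a pair chosen after its values were seen, and an exact permutation test of 3 against 3 arrays cannot give a two-sided p below 0.10.

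**Figure D2:**
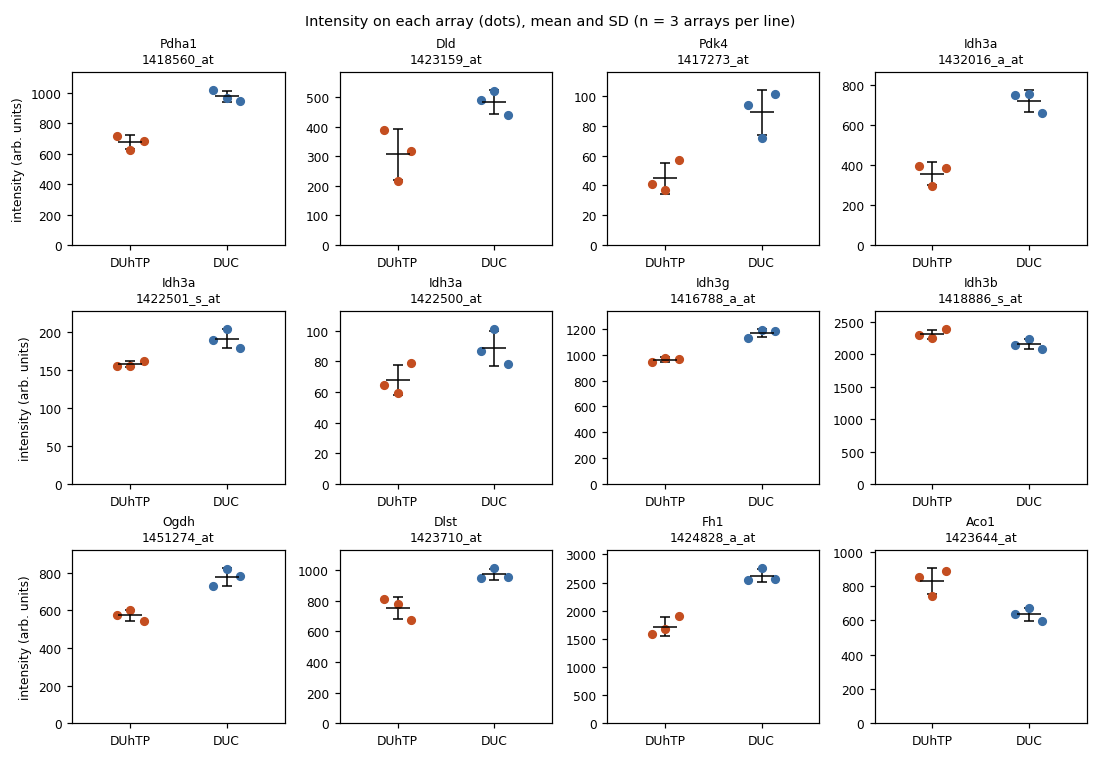
Intensity in arbitrary units (vertical axes from 0) on each DUhTP array (orange dots) and DUC array (blue dots) for 12 probe sets of 10 member genes, with the mean as a bar and the SD as error bars (n = 3 arrays per line). For Idh3a on 1432016_a_at the DUhTP arrays lie between 294 and 395 and the DUC arrays between 658 and 752. Idh3b on 1418886_s_at and Aco1 on 1423644_at lie higher in DUhTP and did not pass the test as deposited. The lines overlap on the probe sets of Idh3b and Aco1 that are not shown.

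Ogdh, the E1 subunit of 2-oxoglutarate dehydrogenase, measured 577, 604 and 545 in DUhTP, against 730.2, 822 and 781 in DUC. The lines did not overlap, with a log2 fold change of -0.44 (SE 0.11, FC -1.35). It passed the test with 16 added (adjusted p 0.0405) and not as deposited (adjusted p 0.103), and with 16 added the call was kept in 1 of 6 fits that left out an array. Dlst, the E2 subunit of the same complex, measured 809.8, 780.0 and 672 in DUhTP and 948, 1014 and 959.9 in DUC on 1423710_at. These did not overlap either (log2 fold change -0.37, adjusted p 0.159, and 0.0797 with 16 added). On the dim 1431011_at Dlst overlapped, at 100.4, 95.4 and 74.5 in DUhTP and 92.9, 99.6 and 94.8 in DUC.

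Succinyl-CoA synthetase, which makes ATP or GTP in the cycle, had log2 fold changes of -0.12 to 0.13, and each of its 3 probe sets overlapped between the lines. Its shared α subunit Suclg1 measured 2263, 2079 and 2643 in DUhTP and 2259, 2187 and 1938 in DUC (log2 fold change 0.13). The ADP-specific β subunit Sucla2 had a log2 fold change of -0.12 and the GDP-specific Suclg2 one of -0.09, with 95% intervals of -0.42 to 0.18 and -0.36 to 0.18.

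Succinate dehydrogenase, the cycle enzyme that is also complex II of the respiratory chain, had 7 probe sets with log2 fold changes of -0.25 to 0.24, and 0 of its 4 genes passed the test as deposited or with 16 added. Sdhb, the iron-sulfur subunit, measured 4581, 4442 and 5326 in DUhTP and 4246, 4268 and 3650.0 in DUC, without overlap (log2 fold change 0.24, adjusted p 0.359). Its partners did not follow one direction. The flavoprotein Sdha had log2 fold changes of -0.16 and 0.14 on its probe sets, the membrane anchor Sdhc 0.05 and 0.07, and the membrane anchor Sdhd -0.25 and -0.23, and the lines overlapped for each.

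Fh1, fumarase, measured 1577, 1672 and 1898 in DUhTP, against 2547, 2755 and 2562 in DUC. All DUhTP arrays were below all DUC arrays, with means of 1716 ± 165 in DUhTP and 2621 ± 116 in DUC (SD, n = 3 each). The log2 fold change was -0.61 (SE 0.12, FC -1.53), with an adjusted p of 0.0619 as deposited and 0.0112 with 16 added. With 16 added the call was kept in 5 of 6 fits that left out an array. Relative to Mdh2 (1433984_a_at), the next enzyme of the cycle, the log2 intensity of Fh1 was -0.42, -0.31 and -0.14 in DUhTP and 0.09, 0.15 and 0.11 in DUC, a pair also chosen after its values were seen.

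Mdh2, the mitochondrial malate dehydrogenase that remakes oxaloacetate, measured 2117, 2069 and 2099 in DUhTP and 2399, 2485 and 2372 in DUC on 1433984_a_at. Both of its probe sets were without overlap and lower on every DUhTP array, but the log2 fold changes of -0.18 and -0.21 did not pass the test (adjusted p 0.343 and 0.288). Mdh1, the cytosolic malate dehydrogenase of the malate-aspartate shuttle, had 3 bright probe sets with log2 fold changes of -0.05, 0.16 and -0.02, all with overlap. The brightest, 1436834_x_at, measured 4765, 4028 and 5013 in DUhTP and 4483, 4546 and 5212 in DUC. Its dim probe set 1434319_at lay apart from these, at 68.1, 68.7 and 66.6 in DUhTP and 50.5, 51.1 and 60.9 in DUC (log2 fold change 0.33, adjusted p 0.196).

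Of the carriers, Slc25a11, which exchanges 2-oxoglutarate for malate, measured 731, 756 and 687 in DUhTP and 816, 838 and 777 in DUC, without overlap (log2 fold change -0.16, adjusted p 0.426). Slc25a13, the aspartate-glutamate carrier of liver, measured 1305, 1073 and 1132 in DUhTP and 1544, 1529.7 and 1267 in DUC, with overlap (log2 fold change -0.31, adjusted p 0.283). The dicarboxylate carrier Slc25a10 depended on 1 array. It measured 1133, 1060.2 and 610.2 in DUhTP and 1002, 982 and 962 in DUC on 1416954_at, and its log2 fold change was -0.12 with DUhTP replicate 3 and 0.16 without it. On 1416955_at the same array was again the lowest, at 433, 402 and 189 in DUhTP and 415, 344 and 317 in DUC (-0.15, and 0.23 without DUhTP replicate 3).

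Across settings, Idh3a passed in the deposited values, after quantile normalization, with array weights, with 16 added, without the dimmest 33.3% of probe sets and with limma-trend, which fits the spread to the intensity. Fh1 passed in 4 of these 6 settings, and Pdha1, Pdk4 and Ogdh in 3. Limma-trend also called Dld (adjusted p 0.038), Dlst (0.0343) and Idh3g (0.0482) lower and Aco1 (0.0361) higher, which made 8 lower and 1 higher, 25.0% and 3.1% of the 32 genes. In that setting 6.94% of all genes were called lower and 6.25% higher, and 13.2% in all. Without the dimmest probe sets the 5 genes were those named with 16 added, where 7.71% of the remaining genes were called lower and 7.28% higher, 15.0% in all. The direction of each of these genes was the same in all of the 6 settings.

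**Figure D3:**
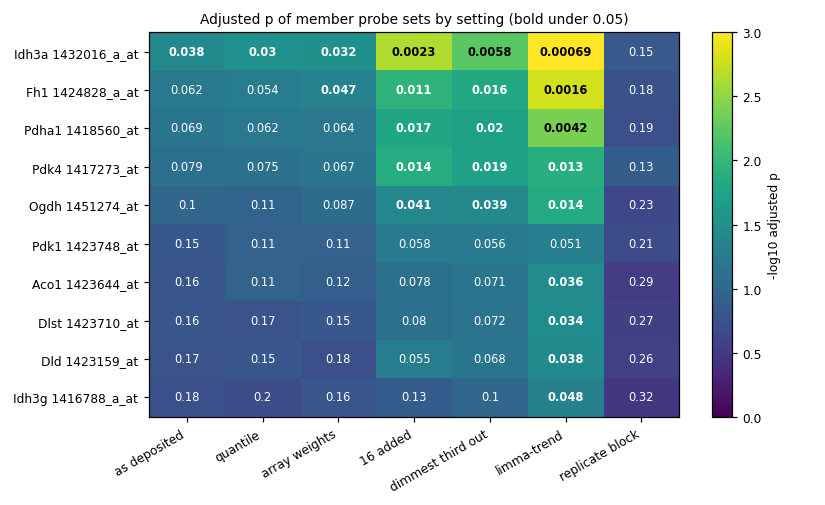
Adjusted p of 10 member probe sets (rows) in 7 settings of the limma comparison (columns), with the shade giving -log10 of the adjusted p and bold text marking values under 0.05. Idh3a is under 0.05 in 6 settings, and 0 of the probe sets are under 0.05 in the fit with a replicate block.

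Around the cycle, genes for the entry and exit of its carbon were listed from textbook knowledge, with earlier results of these data known. Of these, 17 were measured. As deposited, 4 were lower (Got1, Gpt2, Pck1 and Pck2) and 1 higher (Acly), and the other 12 did not pass, where 1.40% of all genes were called lower and 1.92% higher. With 16 added Me1 and Mmut were also lower and Aspa also higher, which made 6 lower and 2 higher, where 6.0% of all genes were called lower and 5.31% higher. Gpt2, the mitochondrial alanine aminotransferase that makes pyruvate from alanine, fell on 3 of its 3 probe sets. On the brightest it measured 1519, 1407 and 1306 in DUhTP and 2834, 3229 and 2952 in DUC, with a log2 fold change of -1.09 and an adjusted p of 0.02. Gpt, the cytosolic form, measured 2086, 2134 and 1505 in DUhTP and 2079.5, 1961 and 1764 in DUC, with overlap (log2 fold change -0.03).

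Got1, the cytosolic aspartate aminotransferase, measured 1324, 1539 and 1254 in DUhTP and 5900.1, 5357 and 4660.0 in DUC (log2 fold change -1.95, adjusted p 0.00945). Its mitochondrial partner Got2 overlapped between the lines, at 4345, 4699 and 4263 in DUhTP and 3897, 4035 and 4305 in DUC on the brighter probe set (log2 fold change 0.12). The phosphoenolpyruvate carboxykinases, which draw oxaloacetate out of the cycle, were both lower on their brighter probe sets. The log2 fold change was -0.79 for the cytosolic Pck1 on 1423439_at (adjusted p 0.029). It was -1.27 for the mitochondrial Pck2 on 1425615_a_at (adjusted p 0.0403). Each gene had another, very dim probe set that overlapped between the lines, with a log2 fold change of 0.61 (Pck1 1455209_at and Pck2 1452620_at). Acly, which splits exported citrate into acetyl-CoA for lipid synthesis, was higher on 1451666_at, at 554, 496 and 561 in DUhTP and 287, 349 and 298 in DUC (log2 fold change 0.79, adjusted p 0.0435). Its probe sets 1438389_x_at, 1439459_x_at (the brightest) and 1425326_at also lay above DUC without overlap. They did not pass as deposited (log2 fold change 0.74, 0.61 and 0.72, adjusted p 0.0537, 0.0973 and 0.175). The very dim 1439445_x_at overlapped between the lines (log2 fold change 0.42). The glutamate dehydrogenase Glud1 and the lactate dehydrogenase Ldha did not pass, with log2 fold changes of -0.05 and -0.04.

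Of 6 measured carriers and partners beyond the members, Slc25a22, the mitochondrial glutamate carrier, was lower. It measured 481, 465 and 439.8 in DUhTP and 829, 795 and 822 in DUC, with a log2 fold change of -0.82 and an adjusted p of 0.0251. The transhydrogenase Nnt and the assembly factor Sdhaf4 did not pass (log2 fold change -0.06 on 1416105_at for Nnt and 0.11 for Sdhaf4). In the related complexes that share Dld with pyruvate dehydrogenase, 0 of 4 measured genes passed as deposited or with 16 added. The branched-chain E1 genes Bckdhb and Bckdha had log2 fold changes of -0.13 and -0.17. Dbt, the branched-chain E2 subunit, measured 246, 115 and 265 in DUhTP and 413, 385 and 352 in DUC, without overlap (log2 fold change -0.97, adjusted p 0.183). Its adjusted p was 0.0526 with 16 added and 0.0408 with limma-trend, where it passed as lower. Of 5 genes for the supply of lipoate and thiamine, the cofactors of these complexes, 0 passed in either setting. The median log2 fold change of their brightest probe sets was 0.38. Lipt1 (0.38), Lipt2 (0.43) and Slc19a2 (0.21 on 1417902_at) lay above DUC without overlap, as did 15.6% of all genes at their brightest probe set. The lipoate synthase Lias (0.10), the very dim Slc19a3 (0.40) and the dimmer probe set of Slc19a2 (0.12) overlapped between the lines.

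Of 12 regulators of the Pdk genes and of mitochondrial genes, the coactivators Ppargc1a and Ppargc1b were lower and 0 were higher, where 1.40% of all genes were called lower. Ppargc1a measured 18.3, 15.1 and 18.9 in DUhTP and 37.7, 41.2 and 36.7 in DUC on 1437751_at (log2 fold change -1.15, adjusted p 0.0228), a dim signal on every array. With 16 added the log2 fold change of this probe set was -0.71 (adjusted p 0.00414), and it is among those removed with the dimmest 33.3%. Another dim probe set of Ppargc1a, 1460336_at, also passed as deposited (log2 fold change -1.19, adjusted p 0.0499). It was kept without the dimmest 33.3% and passed there (adjusted p 0.00838). The remaining probe sets of Ppargc1a were also lower and did not pass as deposited. Ppargc1b measured 63.1, 62.3 and 81.4 in DUhTP and 148, 159 and 178 in DUC (log2 fold change -1.24, adjusted p 0.0263). With 16 added their partner receptor Esrra, the liver factor Hnf4a and the hypoxia factor Hif1a were also lower, 5 of the 12 in all, where 6.0% of all genes were called lower. Ppara, the fatty acid receptor known to induce Pdk4, measured 1514, 1358 and 1295 in DUhTP and 1564, 1782 and 1539 in DUC, without overlap, and did not pass (log2 fold change -0.23, adjusted p 0.346). Sirt3 lay the other way, at 1151, 1175 and 1347 in DUhTP and 1039, 1145 and 1049 in DUC. Its lines did not overlap, and it did not pass (log2 fold change 0.18, adjusted p 0.428). Tfam, which mitochondria need to keep and copy their DNA, had a log2 fold change of -0.10.

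As deposited, Got1 kept its call in 5 of the 6 fits that left out an array and Ppargc1b in 1 of 6, while Gpt2, Pck1, Pck2, Acly, Slc25a22 and Ppargc1a lost theirs in each. With 16 added all 8 genes kept theirs in 6 of 6. Without DUC replicate 2 only 1 of 22626 probe sets was called as deposited, so this loss was not particular to these genes.

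**Figure D4:**
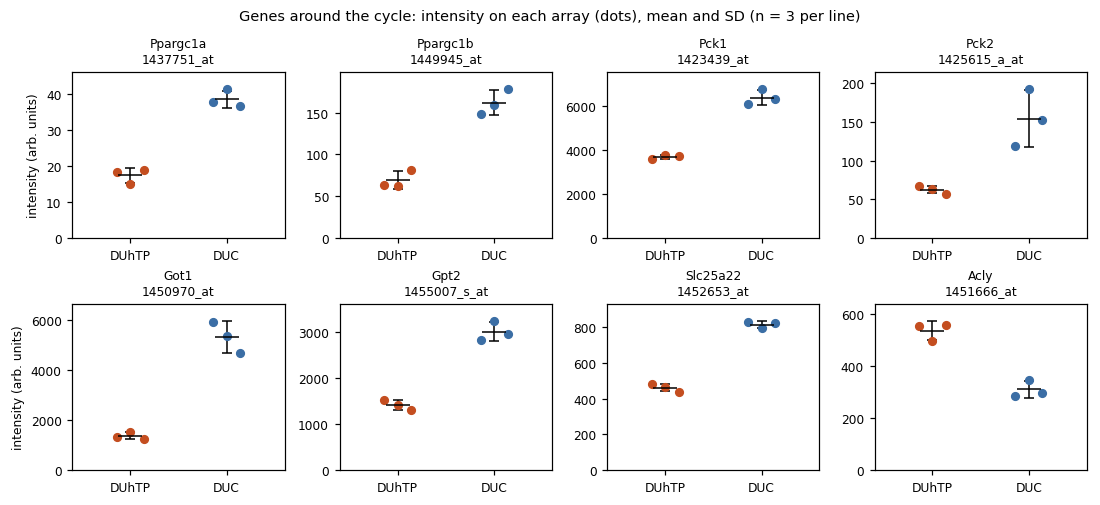
Intensity in arbitrary units (vertical axes from 0) on each DUhTP array (orange dots) and DUC array (blue dots) for the 8 genes around the cycle that passed the test as deposited, with the mean as a bar and the SD as error bars (n = 3 arrays per line). Acly lies higher in DUhTP and the other 7 lie lower, and the lines do not overlap in any of the 8.

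Values of a mitochondrial gene list and of cell type markers were recorded beside the members. A list for mitochondrial content held import, outer membrane, chaperone, carrier, respiratory chain, ATP synthase and electron transfer flavoprotein genes. Of its 21 measured genes, 0 passed as deposited in either direction. With 16 added 4 were lower (Tomm20, Tomm40, Hspa9 and Etfdh), where 6.0% of all genes were called lower. The brightest probe sets of the 21 genes summed to 53080.4 to 55901 on the DUhTP arrays and to 58232 to 62327 on the DUC arrays. Their median log2 fold change was -0.20. The lines did not overlap in this sum. Of other cell types, the 6 measured exocrine pancreas markers summed to 3398, 929.8 and 2234 in DUhTP and to 3784, 7349 and 5525 in DUC, with 3 of 6 lower with 16 added (Prss2, Cpb1 and Ctrb1). The 3 red blood cell markers summed to 1283 to 1657 in DUhTP and 761 to 846 in DUC, and most of this sum was Alas2, at 1558, 1187 and 1203 in DUhTP and 715, 763 and 649.7 in DUC. Alas2 was higher as deposited, while Hba-a1 (log2 fold change -0.08) and Slc4a1 overlapped between the lines on every probe set. The 6 Kupffer cell and macrophage markers summed to 2964 to 3801 in DUhTP and 2139 to 2909.8 in DUC. Of these Clec4f was higher as deposited, Adgre1 and Csf1r were higher and Marco lower with 16 added, and Cd5l had a log2 fold change of -0.01. In the stellate cell and fibroblast list Col3a1 was higher as deposited, while Dcn had a log2 fold change of -0.13 and Col1a1 overlapped between the lines. With 16 added the endothelial marker Stab2 was higher. The adipocyte marker Fabp4 was lower with 16 added on 1417023_a_at and 1451263_a_at. Its other probe sets lay the other way and did not pass (log2 fold change 0.31 on 1424155_at and 0.26 on 1425809_at). The dim adipocyte markers Adipoq and Lep had log2 fold changes of 1.03 and 0.37, with overlap. No marker of these lists was at 0, and the part of mitochondrial content or of these cells in the members' values was not tested.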

How the data were processed

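The authors scaled the scans globally in GCOS 1.1.1 and estimated expression with PLIER in Array Assist. The deposited values are intensities in arbitrary units, and an added constant is not given in the sources used here. Of 22690 probe sets, 64 controls were left out and 22626 tested. Symbols came from the array annotation: 20380 probe sets carry 1, 691 several and 1555 none, and 20351 of the 20380 matched the RefSeq GRCm38.p6 gene table by gene number, with 0 symbols changed. Those with several symbols, or with none, entered the test and were given to no gene.

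All intensities were above 0 and were logged to base 2 without a constant. DUhTP and DUC (3 arrays each) were compared with lmFit and eBayes of limma 3.58.1 in R 4.3.3, unpaired as in the study's methods, with Benjamini-Hochberg adjustment over all probe sets. A gene was counted when at least 1 of its probe sets had an adjusted p under 0.05. The members and lists were chosen with earlier results of these data known, so they received no set test and no adjustment over the list alone. By the rule for named genes, all 32 measured members are accounted for. Arrays are printed for members past the threshold as deposited or with 16 added, for Pdha1 and the Pdk genes, and for the brightest probe set of each enzyme, and from the other lists called genes and up to 2 bright ones are named. Probe sets and genes named beyond that rule were picked with their values in view.

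The alternatives were 16 added, quantile normalization, leaving out the dimmest 33.3%, limma-trend, array weights, a replicate block, leaving out each array, the brightest probe set per gene, leaving out probe sets with an _s or _x suffix (matches to more than 1 transcript), and an FC over 2 as well. The fit was tested on simulated data. The number of arrays limits the precision. Serum steroids, qRT-PCR and the authors' own comparisons were not used here.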

Additional observations from a re-analysis of the deposited data

How the results depend on the processing

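As deposited, limma at an adjusted p under 0.05 called 1 member gene and 546 of all probe sets. The counts were 5 and 1951 with 16 added, 5 and 1851 without the dimmest 33.3% of probe sets, 9 and 2350 with limma-trend, 2 and 690 with array weights, and 1 and 684 after quantile normalization. The member count was also 1 with the brightest probe set per gene, without the _s and _x probe sets, and with an FC over 2 as well. Leaving out 1 array gave 0 member genes in each of the 6 fits and 1 to 122 of all probe sets (at an unadjusted p under 0.05, 3483 to 4586 of all). With 16 added, leaving out 1 array gave 2 to 6 member genes, an alternative chosen after seeing the data. The replicate block gave 0 member genes and 0 of all probe sets, with the smallest adjusted p at 0.0771, against 4124 of all and 9 member probe sets (8 lower, 1 higher) at an unadjusted p under 0.05. Same-numbered arrays of the lines deviated together little, at r = 0.00341, 0.0048 and 0.0667, against -0.0335 to 0.0281 for arrays of different number. Whether the numbers pair the arrays is not settled by these values. The median log2 fold change of the member probe sets lay between -0.12 and -0.06 in all settings tried. Quantile normalization turned 3 values near 0, to 0.01 for Cs (1422578_at), 0.01 for Mdh1 (1436834_x_at) and 0.04 for Mdh1 (1454925_x_at). Leaving out 1 array turned the sign of these Mdh1 probe sets and of others, all of which passed in no setting. Their log2 fold changes then ranged over -0.17 to 0.01 for Dlat (1426265_x_at), -0.27 to 0.08 for Pdk2, -0.10 to 0.21 for Pdk3, -0.10 to 0.13 for Mpc1, -0.26 to 0.11 for Pcx, -0.06 to 0.01 for Idh3b (1418885_a_at), -0.18 to 0.03 for Dlst (1431011_at), -0.03 to 0.16 for Sdhc (1435986_x_at), -0.11 to 0.05 for Mdh1 (1436834_x_at), -0.07 to 0.02 for Mdh1 (1454925_x_at), -0.29 to 0.16 for Slc25a10 (1416954_at) and -0.37 to 0.23 for Slc25a10 (1416955_at). The cause of these changes was not tested. With 3 arrays per line an exact permutation test cannot give a two-sided p below 0.10, and dim probe sets such as that of Pdk3 carry little signal.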
